A study of Mus musculus with 6 samples.

Results

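Among the cells released from the surface of the adult mouse cortex and from the inner side of the skull were class II-rich dendritic cells that express Cd209a, a C-type lectin gene. They were chosen here from the counts themselves. A barcode was taken as a Cd209a dendritic cell when it had at least 500 genes, no more than 10% mitochondrial UMIs, at least 1 UMI of Cd209a, at least 10 UMIs summed over the class II genes H2-Aa, H2-Ab1 and H2-Eb1, at most 2 UMIs of the complement genes C1qa and C1qb together, and no UMI of the T cell gene Cd3e or the B cell gene Cd79a. A UMI, or unique molecular identifier, marks 1 captured mRNA molecule. By this rule 253 barcodes were members, of 8804 that passed the gene and mitochondrial limits and 17560 in the files.

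The study asked which cells make up the meningeal and brain interface, and profiled single cells of 2 dissections with the 10x Genomics Chromium system. Cortical surface-associated (CSA) libraries, 4 in number, held cells digested off the dorsal cortex with its leptomeninges, and bone-associated (BA) libraries, 2 in number, held tissue dissected from the inside of the skull, which includes the dura. All mice were untreated adult C57BL6 animals, several were pooled in each library, none were perfused, and DRAQ5-positive, propidium iodide-negative cells were sorted from both dissections. Replication is therefore by library, the spread between mice is not seen, and cells from blood left in the vessels cannot be told apart from cells resident in the tissue.

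Conventional dendritic cells develop under Flt3 ligand, sample their surroundings, and present peptides on class II molecules to CD4 T cells. The type 2 subset, cDC2, depends on the transcription factor Irf4 and commonly carries lectins such as Mgl2 and Cd209a. When a dendritic cell matures it turns on costimulatory genes and Ccr7, the receptor that guides it through lymphatic vessels to a lymph node. In the meninges such cells are known mainly from the dura and the choroid plexus, and few from the brain surface.

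The members came from all 6 libraries but unevenly. CSA 1 to CSA 4 held 5, 5, 23 and 77 of them, with 105199, 87337, 283793 and 1076882 UMIs in total, and BA 1 and BA 2 held 30 and 113, with 510135 and 2130628 UMIs. The median member had 15507 UMIs. A level of 1 UMI corresponded to 9.51, 11.4, 3.52 and 0.929 CPM in CSA 1 to CSA 4 and to 1.96 and 0.469 CPM in BA 1 and BA 2, where CPM counts a gene's UMIs per 1000000 UMIs of the members of a library. Low levels in CSA 1 and CSA 2 thus rest on single molecules, and only libraries with at least 10 members entered the test of gene levels, which compared CSA 3 and CSA 4 with BA 1 and BA 2.

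Those 2 CSA libraries differed from the rest in more than their dissection. UMIs of the Y-linked genes Ddx3y, Eif2s3y, Kdm5d and Uty were found in 30.9% and 32.3% of all kept barcodes of CSA 3 and CSA 4 but in at most 0.269% of those of any other library. Among the members, 12 of 23 in CSA 3 and 34 of 77 in CSA 4 had such a UMI and none in CSA 1, CSA 2, BA 1 or BA 2 did. Xist, the RNA of the inactive X chromosome, was found in 3 of 5 and 5 of 5 members of CSA 1 and CSA 2, in 21.7% and 23.4% of those of CSA 3 and CSA 4, and in 93.3% and 98.2% of those of BA 1 and BA 2. The study's methods describe equal numbers of both sexes in every library. Hemoglobin took 84.6% and 71.9% of all UMIs in CSA 3 and CSA 4, and 4.29% and 5.80% of their members' UMIs, against 1.46% in the members of BA 2 and at most 0.00216% in those of the other libraries. In the 4 libraries tested, sex and blood content moved with the preparation and cannot be told apart from it. CSA 1 and CSA 2 had no member with a Y-linked UMI and next to no hemoglobin. Their levels are given for most genes described below, and most groups of genes are also counted with all 6 libraries, with CSA 1 and CSA 2 alone against BA, and with members that had a Xist UMI and no Y-linked UMI.

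**Figure D1:**
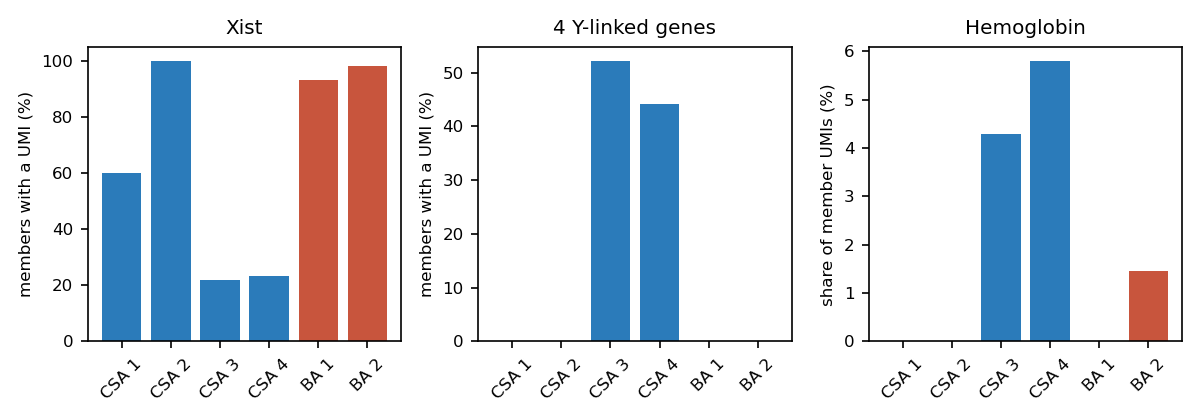
Signs of sex and of blood in the Cd209a dendritic cells of each library (x axis; CSA blue, BA red): the share of members with a UMI of Xist, the share with a UMI of 4 Y-linked genes, and the share of member UMIs on hemoglobin genes, all in percent. CSA 3 and CSA 4 have 21.7% and 23.4% of members with Xist and are the only libraries with members that have Y-linked UMIs.

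The label was checked against genes that the rule did not use. Flt3, the receptor for Flt3 ligand, was found in 58.1% of members at 77.3 CPM, against 6.46% at 6.26 CPM in C1q-positive class II barcodes (418 barcodes with at least 10 C1q UMIs, which are macrophage-like) and 7.28% at 8.24 CPM in 151 Ly6c2 monocyte barcodes. Zbtb46, a transcription factor of conventional dendritic cells, was found in 38.3% of members, 3.59% of C1q-positive barcodes and none of the monocyte barcodes. Mgl2 was found in 70.0% of members but also in 85.9% of C1q-positive barcodes, so it did not set the members apart from these. Lyz2, a lysozyme gene of monocytes and macrophages, was at 2625 CPM in members, 7990 in C1q-positive barcodes and 31065 in monocyte barcodes. The monocyte barcodes were themselves chosen by UMIs of Ly6c2, Csf1r and Lyz2 (at least 5) and by at most 9 class II UMIs. Their Lyz2 level was thus fixed in part by that choice. Of the genes that define the other dendritic subsets, Xcr1 was at 2.62 CPM, and Siglech at 31.5 CPM in 5.53% of members. A UMI of Xcr1 or Clec9a, the markers of cDC1, was found in 32 of 253 members (12.6%). These were 18.6% of members in BA 2 and 1 of 5 in CSA 2, against at most 8.70% in the other libraries. Among the wider lists, 212 members had 2 or more of 12 cDC1 genes, led by Naaa, and 165 had 2 or more of 10 plasmacytoid genes, led by Bst2. These levels are descriptions, since the choice of members by class II and Cd209a UMIs fixes part of them.

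The limits of the rule fell in sparsely filled ranges for most of its genes. Of the members, 15 had 1 UMI of Cd209a and 9 had 2, while 111 barcodes met every other condition without a Cd209a UMI. That group had Irf8 at 744 CPM against 52.9 in members, and Xcr1 at 122 CPM. C1qa and C1qb together gave 1 or 2 UMIs in 28 members, 3 to 9 in 12 barcodes just outside the rule and 10 or more in 55. Class II UMIs summed to 10 to 49 in 8 members, and 5 barcodes with 1 to 9 lay outside. Of barcode sequences, 35 occurred in more than 1 library and 4 of these were members in one of them.

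The Cd209a dendritic cells were a smaller share of the kept barcodes in CSA than in BA libraries on average, but the ranges overlapped. They made up 0.673% (exact binomial 95% interval 0.219 to 1.56), 0.399% (0.13 to 0.929), 2.09% (1.33 to 3.11) and 3.44% (2.72 to 4.28) in CSA 1 to CSA 4. In BA 1 and BA 2 they made up 3.12% (2.11 to 4.42) and 4.52% (3.74 to 5.40). CSA 4 lay above BA 1, and CSA 1 and CSA 2 lay lowest. The mean was 1.65% ± 1.40 (SD, n = 4) in CSA and 3.82% ± 0.99 (SD, n = 2) in BA, with p = 0.267 in an exact two-sided permutation test that cannot give less than 0.133. Of barcodes with a UMI of Ptprc, the gene for CD45 on all leukocytes, the members took 2.73% ± 1.87 (SD, n = 4) in CSA and 7.15% ± 2.42 (SD, n = 2) in BA, and every CSA library lay below both BA libraries (p = 0.133, the smallest this exact permutation test can give). The shares depend on the dissection and the sort, and the intervals cover counting error only.

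**Figure D2:**
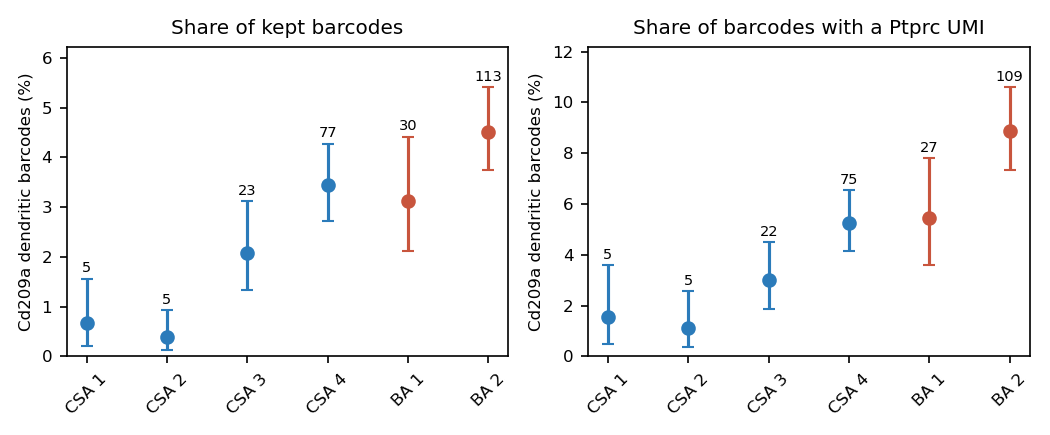
Share of Cd209a dendritic cells in each library (x axis; CSA blue, BA red) in percent of kept barcodes (left) and of barcodes with a Ptprc UMI (right), with exact binomial 95% intervals and the number of members above each point. Over all kept barcodes CSA 4 (3.44%) lies above BA 1 (3.12%), while over Ptprc barcodes every CSA library lies below both BA libraries.

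The same members differed widely in gene expression between preparations, and more genes were lower than higher in CSA. Of 7644 genes with a UMI in over 10% of the members of either preparation, 662 (8.66%) changed, by edgeR's quasi-likelihood test. A call needed a Benjamini-Hochberg adjusted p below 0.05 and a log2 fold change of 1.3 or more in either direction. Of these, 143 (1.87%) were higher in CSA and 519 (6.79%) were lower, and the median log2 fold change of all tested genes was -0.02. Upper-quartile scaling moved that median to 0.18 and the split to 243 higher and 403 lower. Fold changes are given as log2 of CSA over BA ± SE. The biological coefficient of variation was 0.198. With all 6 libraries 52 genes (0.677%) were higher and 306 (3.98%) lower, and with CSA 1 and CSA 2 alone against BA 4 (0.0521%) were higher and 36 (0.469%) lower. With members that had a Xist UMI and no Y-linked UMI, 51 (0.637%) were higher and 427 (5.33%) lower. That fit rests on 5 members in CSA 3, below the minimum of 10 used otherwise, and on 18, 28 and 111 in CSA 4, BA 1 and BA 2. These shares are the background for the counts of gene groups below. A gene could pass the 10% limit through the preparation where it was higher alone, in the groups and in the background. Leaving out CSA 4 left 301 calls. Of 93 called genes that were followed through these alternatives, 51 were also called with all 6 libraries, 9 with CSA 1 and CSA 2 alone and 63 among members with a Xist UMI and no Y-linked UMI. Over all 6 libraries 60 called genes (0.785%) had every CSA level above both BA levels and 307 (4.02%) had every CSA level below them. Called or not, 601 genes (7.86%) had every CSA level above and 964 (12.6%) every CSA level below, so this order alone is common.

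**Figure D3:**
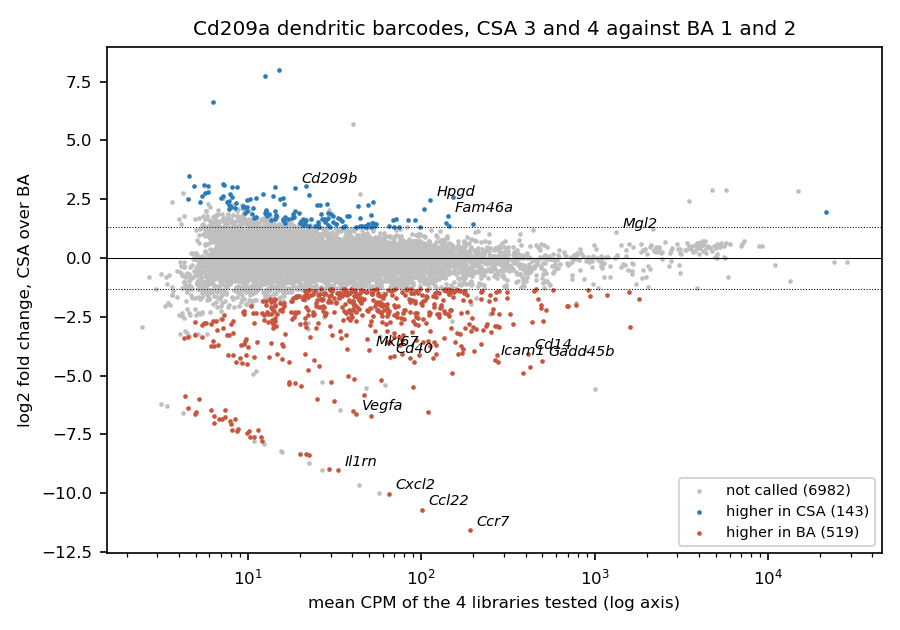
Log2 fold change (CSA over BA, y axis) against the mean CPM of CSA 3, CSA 4, BA 1 and BA 2 (x axis, log scale) for the 7644 genes tested in Cd209a dendritic cells. Of these, 143 are higher in CSA (blue) and 519 higher in BA (red), grey genes were not called, and dotted lines mark the fold limit of 1.3 in log2; the band of genes at the bottom, with Ccr7 lowest, has no UMI in CSA 3 and CSA 4.

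Of the genes that mark the cell type, some overlapped between the 2 preparations and others differed. Cd209a itself (chr8:3743397-3748984 of GRCm38, minus strand), chosen by the rule and not tested, was at 1616, 3091, 2156.5 and 1605 CPM in CSA 1 to CSA 4 and at 1733 and 1472 in BA 1 and BA 2. H2-Ab1, also of the rule, was at 9154, 12675, 10116.5 and 10125.5 CPM in CSA and at 12418 and 11582 in BA. Flt3 (chr5:147330741-147400489, minus strand) was at 95.1, 126, 56.4 and 65.0 CPM in CSA and at 108 and 76.0 in BA, and the groups overlapped, with a log2 fold change of -0.47 ± 0.30 (edgeR adjusted p = 0.369). Zbtb46 was at 28.5, 34.3, 38.8 and 36.2 CPM in CSA and 33.3 and 41.8 in BA. Itgax, which encodes CD11c, was at 57.0, 80.1, 63.4 and 91.0 CPM in CSA and at 114 and 94.8 in BA. Every CSA library thus lay below both BA libraries for Itgax, as in 12.6% of all genes tested. Sirpa, a receptor on cDC2, lay between 98.0 and 252 CPM in all 6 libraries.

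Mgl2, the last of the label markers, was higher in most CSA libraries. It was at 684, 2279, 1787 and 1777 CPM in CSA 1 to CSA 4 and at 906 and 843 in BA 1 and BA 2. All CSA libraries but CSA 1 lay above BA, and the log2 fold change of 1.09 ± 0.15 (edgeR adjusted p = 8.7e-07) was below the limit of 1.3, so the gene was not called. Its close relative Clec10a, another galactose-binding lectin, was at 371, 45.8, 303 and 221 CPM in CSA and at 578 and 433 in BA. Every CSA library thus lay below both BA libraries for Clec10a, as in 12.6% of all genes tested. Its log2 fold change of -0.91 ± 0.20 (edgeR adjusted p = 0.00123) was below the limit, and it was called among members with a Xist UMI and no Y-linked UMI (-1.70). In each of CSA 4, BA 1 and BA 2 the members without an Mgl2 UMI had a lower median Cd209a count than those with one, at 5, 8.5 and 9 UMIs against 26, 34.5 and 27. In CSA 3 the order was the reverse, at 42 UMIs in the 5 members without an Mgl2 UMI against 22.5 in the 18 with one. Members without an Mgl2 UMI were also shallower, with medians of 9943, 10844, 14648 and 15640.5 UMIs in CSA 3, CSA 4, BA 1 and BA 2. Those with one had medians of 12969, 14520, 20000 and 18221 UMIs, and the part of depth in the Cd209a counts was not tested.

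Of 15 cDC2 genes tested in a list of 17, 3 were lower in CSA and none higher, with a median log2 fold change of -0.05, and 1 was lower with all 6 libraries, 1 with CSA 1 and CSA 2 alone and 5 in members with a Xist UMI and no Y-linked UMI. Il1r2, the decoy receptor for interleukin 1, was at 28.5, 22.9, 10.6 and 20.4 CPM in CSA and at 282 and 339 in BA. Every CSA library lay far below both BA libraries, and the fitted log2 fold change was -4.07 ± 0.31 (edgeR adjusted p = 1.5e-12), or -3.77 with CSA 1 and CSA 2 alone. Irf4, the transcription factor of cDC2, was at 114, 68.7, 35.2 and 24.1 CPM in CSA and at 78.4 and 88.2 in BA, lower in the test (-1.56 ± 0.35) but overlapping through CSA 1. Tnip3, an inhibitor of NF-kB signalling, was at 371, 2485, 197 and 317 CPM in CSA and at 1086 and 1200.1 in BA, and its log2 fold change of -2.06 ± 0.19 turned to 0.16 with CSA 1 and CSA 2 alone, since CSA 2 lay highest of all libraries.

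Of 11 dendritic identity genes 2 were lower in CSA (Relb and Traf1, which also belong to the NF-kB list), and of 22 tested dendritic transcription factors 6 were lower: Ahr, Cebpb, Irf4, Nfil3, Nr4a3 and Relb. All 6 libraries gave 1 and 2 lower genes in these lists, CSA 1 and CSA 2 alone none, and members with a Xist UMI and no Y-linked UMI 1 and 5. Cebpb, a factor of myeloid inflammatory genes, was at 0, 57.2, 77.5 and 57.6 CPM in CSA and at 341 and 644 in BA, without overlap. Spi1, which encodes PU.1, was at 133, 332, 282 and 337 CPM in CSA and 257 and 363 in BA. Of 6 cDC1 genes tested 1 was lower, the interferon-induced Ifi205, and none of 4 plasmacytoid genes tested passed. Xcr1 and Siglech, which define those subsets, were detected in too few members to be tested. Ifi205 was at 66.5, 22.9, 3.52 and 7.43 CPM in CSA and at 33.3 and 33.3 in BA, overlapping through CSA 1. It was not called with all 6 libraries (edgeR adjusted p = 0.249) or with CSA 1 and CSA 2 alone (0.27 in log2). Among members with a Xist UMI and no Y-linked UMI it was called (-3.55).

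The largest difference between the preparations was in Ccr7 (chr11:99144196-99155077, minus strand), the lymph node homing receptor. No UMI was found in CSA 1, CSA 2, CSA 3 or CSA 4, against 323 and 443 CPM in BA 1 and BA 2. Counted by cells, 10 of 30 members in BA 1 and 63 of 113 in BA 2 had a Ccr7 UMI and 0 of 110 in CSA did, which allows a share of members with a Ccr7 UMI of up to 2.73% (3 of 110; counting error only). Against a floor of 3 UMIs over CSA 3 and CSA 4 together, Ccr7 was at least 190.3-fold lower in CSA (edgeR adjusted p = 1.6e-15). It was called with all 6 libraries and with CSA 1 and CSA 2 alone against BA as well. The gene was found in other cells of the CSA libraries: 12.7% and 24.8% of the Cd3e barcodes of CSA 3 and CSA 4 had a Ccr7 UMI, at a median of 6358 UMIs over all Cd3e barcodes. C1q-positive barcodes, which should lack it, had a Ccr7 UMI in 1.20% of cases at a median of 9296 UMIs.

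After thinning each member to 1500 UMIs, 24.1% of members in BA 1 and 25.9% in BA 2 kept a Ccr7 UMI and none in CSA 3 and CSA 4 did. An exact permutation test of 2 against 2 libraries cannot go below p = 0.333, which is the value this gave (0.571 adjusted over 12 gates). Within BA, members with and without Ccr7 differed in other genes. In BA 1, Cd40 was found in 80.0% of the members with a Ccr7 UMI and 30.0% of those without, and Ccl22 in 5 of 10 and in none. In BA 2 the shares were 82.5% and 42.0% for Cd40 and 49.2% and 14.0% for Ccl22. Members with Ccr7 were also deeper, with medians of 19977.5 and 18893 UMIs against 16767 and 15183.5, and its part in these shares was not tested.

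Most genes that go with Ccr7 in mature migratory dendritic cells moved the same way. Of 11 tested in a list of 16 that includes Ccr7 itself, 8 were lower in CSA, Ccr7 among them, and none higher. The median log2 fold change was -2.45 against -0.02 over all genes, and 6.79% of all genes were called lower. With all 6 libraries 8 were lower, with CSA 1 and CSA 2 alone 3, and with members that had a Xist UMI and no Y-linked UMI 6. Each of these counts includes Ccr7. Ccl22, a chemokine for Ccr4-bearing T cells, was at 0, 22.9, 0 and 0 CPM in CSA and at 125 and 277 in BA, at least 112-fold lower in CSA 3 and CSA 4 (edgeR adjusted p = 0.00048). Its neighbour Ccl17 was at 0, 80.1, 88.1 and 75.2 CPM in CSA and at 133 and 482 in BA and was not called (edgeR adjusted p = 0.424). Every CSA library lay below BA for Ccl17, as in 12.6% of all genes tested. It was called among members with a Xist UMI and no Y-linked UMI (-2.38, edgeR adjusted p = 0.00994). Il4i1, an amino acid oxidase of mature dendritic cells, was found only in CSA 4 (14.9 CPM) among CSA libraries and at 33.3 and 56.8 CPM in BA. Fscn1, which bundles actin in dendrites, was detected in too few members to be tested.

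**Figure D4:**
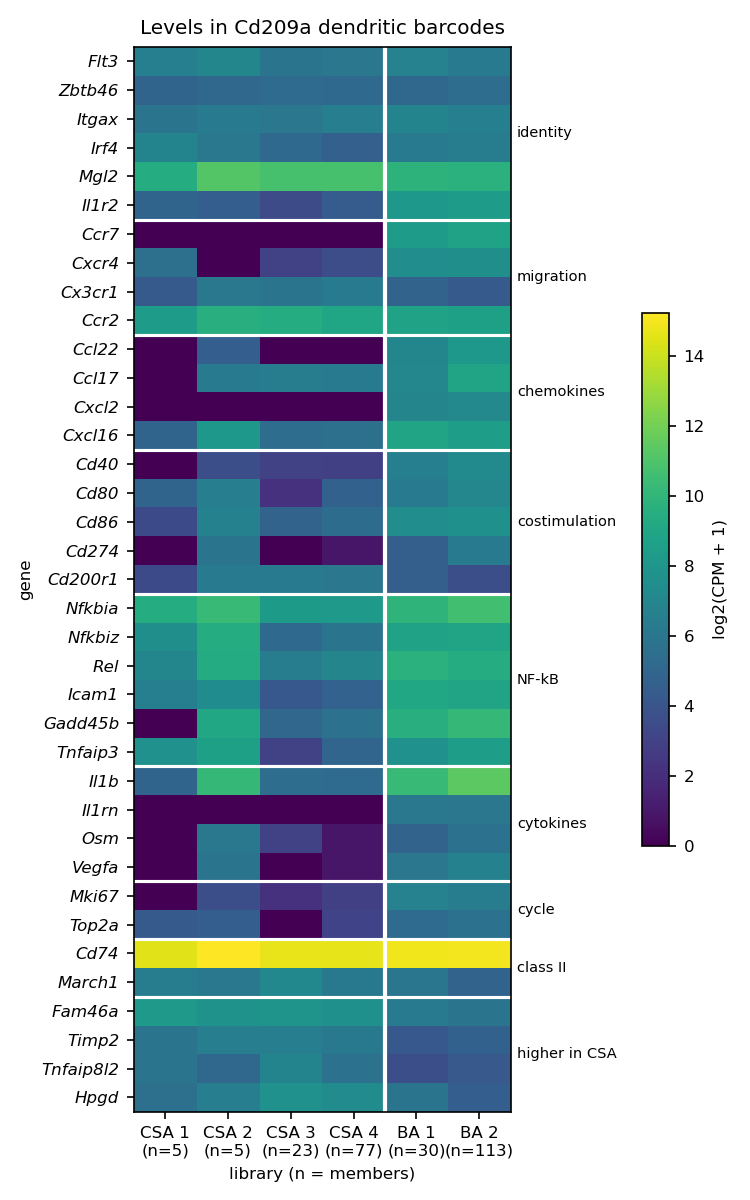
Levels of 37 named genes (rows, grouped by role) in the Cd209a dendritic cells of each library (columns, with the number of members), as log2(CPM + 1). Ccr7, Cxcl2 and Il1rn are at 0 in all 4 CSA libraries, the 6 NF-kB genes are lower in CSA 3 and CSA 4 than in BA 1 and BA 2, and Zbtb46 and Cd74 differ little between columns.

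Among 19 chemokine and chemokine receptor genes tested of 29, 7 were lower in CSA (6.79% of all genes) and 1 higher (1.87%). With all 6 libraries 4 were lower (3.98%), with CSA 1 and CSA 2 alone 5 (0.469%), and in members with a Xist UMI and no Y-linked UMI 10 (5.33%). Cxcl2, a neutrophil attractant, had no UMI in any CSA library and was at 119.6 and 139.9 CPM in BA, at least 61.7-fold lower in CSA 3 and CSA 4, though 1 cell held 38.4% of its UMIs. Cxcl16, a membrane-bound chemokine, was at 28.5, 275, 42.3 and 48.3 CPM in CSA and at 469 and 348 in BA, without overlap (-3.06 ± 0.26), but it was not called with all 6 libraries (edgeR adjusted p = 0.218). Cxcr4, the receptor for stromal Cxcl12, was at 47.5, 0, 7.05 and 11.1 CPM in CSA and at 178 and 192 in BA (-4.13 ± 0.36). It was found in 11.8% of CSA and 72.7% of BA members.

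Cx3cr1, the fractalkine receptor, went the other way. It was at 19.0, 68.7, 56.4 and 75.2 CPM in CSA and at 27.4 and 18.8 in BA, higher in CSA (1.70 ± 0.36) with an overlap through CSA 1. Ccr2, the receptor that brings monocytes and dendritic precursors out of blood, was at 333, 756, 701 and 502 CPM in CSA and 433 and 403 in BA. Its log2 fold change of 0.57 ± 0.18 did not reach the limit.

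The class II presentation machinery showed little change beside these. Of 11 genes tested, other than the 3 of the rule, 1 was higher in CSA and none lower, with a median log2 fold change of 0.22. That gene, March1, a ubiquitin ligase that removes class II and Cd86 from the surface, was at 85.6, 68.7, 137 and 70.6 CPM in CSA and at 62.7 and 27.7 in BA (1.31 ± 0.40, edgeR adjusted p = 0.0355), just above both limits and not called with all 6 libraries. Cd74, the invariant chain, was at 24154, 38334, 26519 and 25604 CPM in CSA and at 30466 and 31256 in BA, overlapping. Of 20 class I genes 3 were lower (H2-Q4, H2-Q6 and H2-Q7), none of them with all 6 libraries or with CSA 1 and CSA 2 alone. Among members with a Xist UMI and no Y-linked UMI 2 were lower, H2-Q6 and H2-Q7. Since the 3 genes are near-identical copies whose reads can be split, their values are uncertain.

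Of 11 costimulatory and checkpoint genes tested of 13, 6 were lower in CSA and 1 higher, with a median of -2.45. Of them 4 were lower and 1 higher with all 6 libraries, and 1 was lower with CSA 1 and CSA 2 alone. Among members with a Xist UMI and no Y-linked UMI 6 were lower and none higher. Cd40, the receptor through which T cells license dendritic cells, was at 0, 11.4, 7.05 and 6.50 CPM in CSA and at 94.1 and 155 in BA, all CSA libraries well below BA (-4.21 ± 0.43, edgeR adjusted p = 1.5e-09). It was found in 6.36% of CSA and 60.8% of BA members. Cd86, a ligand of Cd28, was at 9.51, 103, 28.2 and 39.9 CPM in CSA and at 176 and 197 in BA, without overlap (-2.31 ± 0.29). Cd80, the other Cd28 ligand, was at 28.5, 91.6, 3.52 and 25.1 CPM in CSA and at 76.5 and 131 in BA, overlapping through CSA 2 (-2.45 ± 0.43).

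The inhibitory ligand Cd274, or PD-L1, was at 0, 57.2, 0 and 0.929 CPM in CSA and at 23.5 and 76.0 in BA. With 1 UMI in CSA 3 and CSA 4 together, its ratio of BA over CSA was 89.7 (95% counting interval 15.9 to 3561), but CSA 2 lay within the range of BA. Cd83, a maturation marker, was at 152, 1042, 49.3 and 144 CPM in CSA and at 1292 and 2057 in BA. Every CSA library lay below BA, as in 12.6% of all genes tested, and the test did not call Cd83 (-3.91 ± 0.70, edgeR adjusted p = 0.120). Among members with a Xist UMI and no Y-linked UMI it was called (-4.70). Cd200r1, an inhibitory receptor, was the gene of the list that was higher, at 9.51, 80.1, 74.0 and 64.1 CPM in CSA against 23.5 and 11.7 in BA (2.19 ± 0.39).

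Genes induced by NF-kB, the transcription factor of inflammatory activation, were mostly lower in CSA 3 and CSA 4, and less uniformly so in CSA 1 and CSA 2. Of 18 genes 16 were lower in CSA and none higher, with a median log2 fold change of -2.42, and 16 were also lower among members with a Xist UMI and no Y-linked UMI. With all 6 libraries the count was 6, and with CSA 1 and CSA 2 alone it was 1. Of the 16 genes 9 (56.2%) had every CSA library below both BA libraries and 7 overlapped, against 307 (59.2%) without overlap among all 519 genes called lower. Icam1, an adhesion molecule for T cells, was at 95.1, 172, 17.6 and 26.9 CPM in CSA and at 531 and 483 in BA, without overlap (-4.32 ± 0.27, edgeR adjusted p = 3.6e-15), and it was the 1 gene called with CSA 1 and CSA 2 alone (-2.12). Gadd45b, a stress-induced growth regulator, was at 0, 561, 31.7 and 51.1 CPM in CSA and at 765 and 1146 in BA (-4.36 ± 0.25). Rel, a subunit of NF-kB itself, was at 124, 664, 88.1 and 123 CPM in CSA and at 845 and 685 in BA (-2.74 ± 0.20). Icam1, Gadd45b and Rel were not called with all 6 libraries (edgeR adjusted p = 0.0507, 0.451 and 0.419).

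In other members of the list CSA 2 reached or passed the BA level. Nfkbiz, a nuclear cofactor, was at 190.1, 687, 35.2 and 57.6 CPM in CSA and at 445 and 479 in BA, with CSA 2 highest of all. Nfkbia, the inhibitor that NF-kB induces against itself (chr12:55489410-55492647, minus strand), was at 684, 1237, 310.1 and 305 CPM in CSA and at 962 and 1543 in BA. Tnfaip3, which encodes the deubiquitinase A20, was at 209, 401, 7.05 and 30.6 CPM in CSA and at 209.7 and 376 in BA. In all 3, CSA 3 and CSA 4 lay below CSA 1, CSA 2 and both BA libraries, and with CSA 1 and CSA 2 alone their log2 fold changes were -0.26, -0.57 and -0.15, none of them called. Nfkb1 was the gene of the list nearest to a call (-1.13 ± 0.20) and Sod2 did not pass.

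Because these genes moved together, the 250 bases before their starts were searched on both strands for the kB motif (GGGA, any 2 bases, TTCC) and the AP-1 motif (TGANTCA). Matches of the kB motif on the 2 strands can overlap each other, and neither promoter shown here holds an AP-1 match. Of the 18 NF-kB genes 15 had a RefSeq promoter in the table used (all but Nfkbiz, Nfkb1 and Relb), and 2 of them, Nfkbia and Nfkb2, had a kB match (13.3%). It was found in 1.21% of 32851 promoters and in 1.48% of 6090 tested genes with a promoter, and in 2.47% of 405 genes lower in CSA. The AP-1 motif was found in 6 of the 15 (40.0%), against 5.14% of tested genes and 8.64% of genes lower in CSA. A match is a run of letters and not a binding site. The promoters of Cxcl2 and Nfkbia, chosen after their values were seen as 2 genes lower in CSA with a kB match near the start, are shown from RefSeq (GRCm38.p6), 5′ to 3′ on the strand of the gene, with the kB letters in capitals; annotated exon bases of Cxcl2 were left off its end. The 222 bases of Cxcl2 lie at chr5:90903649-90903870 (plus strand) and hold 2 overlapping matches. The first begins 97 bases before the start used in the search. That start lies beyond the printed end, past the 28 exon bases left off. The 250 bases of Nfkbia at chr12:55492648-55492897 (minus strand) hold 1 match, from 29 bases before the start of Nfkbia.
Cxcl2: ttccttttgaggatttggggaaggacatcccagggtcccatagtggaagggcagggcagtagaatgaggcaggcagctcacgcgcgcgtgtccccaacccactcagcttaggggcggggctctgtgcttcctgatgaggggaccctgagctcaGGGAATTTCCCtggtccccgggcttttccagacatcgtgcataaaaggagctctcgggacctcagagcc
Nfkbia: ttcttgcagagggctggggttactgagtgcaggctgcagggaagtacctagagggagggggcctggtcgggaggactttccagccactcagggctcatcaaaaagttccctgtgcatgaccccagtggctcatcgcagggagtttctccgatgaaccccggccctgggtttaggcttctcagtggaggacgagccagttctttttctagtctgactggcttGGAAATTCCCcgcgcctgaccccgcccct

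Of 14 cytokine genes tested of 21, 4 were lower in CSA and 1 higher, with a median of -2.32, while all 6 libraries gave 1 lower and none higher, CSA 1 and CSA 2 alone 1 and none, and members with a Xist UMI and no Y-linked UMI 5 and none. Il1rn, the natural antagonist of the interleukin 1 receptor, had no UMI in any CSA library and was at 68.6 and 63.8 CPM in BA, at least 29.4-fold lower in CSA 3 and CSA 4. Vegfa, a growth factor for vessels, was at 0, 57.2, 0 and 0.929 CPM in CSA and at 64.7 and 102 in BA, a ratio of BA over CSA of 129 (95% counting interval 22.9 to 5108) from 1 UMI in CSA 3 and CSA 4. Osm, a cytokine that acts on stromal cells, was at 0, 68.7, 7.05 and 0.929 CPM in CSA and at 27.4 and 50.2 in BA, a ratio of 20.8 (6.94 to 102), with CSA 2 highest of all libraries. Il1b was at 28.5, 1122, 42.3 and 39.0 CPM in CSA and at 1202 and 2714 in BA. All CSA libraries lay below BA, as in 12.6% of all genes tested, but at an edgeR adjusted p of 0.0689 (-5.57 ± 0.74) Il1b was not called. Among members with a Xist UMI and no Y-linked UMI it was (-6.57). Tnfsf13b, a survival factor for B cells, was higher in CSA at 28.5, 11.4, 21.1 and 13 CPM against 5.88 and 2.82 in BA (2.12 ± 0.68, edgeR adjusted p = 0.0307).

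Of 23 receptors for cytokines tested 5 were lower (Csf2rb, Il1r2, Il4ra, Tnfrsf1a and Tnfrsf1b) and 1 was higher. The counts were 5 and 1 with all 6 libraries, 2 and none with CSA 1 and CSA 2 alone, and 5 and none among members with a Xist UMI and no Y-linked UMI. The higher one, Il1rl1, the receptor for interleukin 33, was at 66.5, 137, 77.5 and 74.3 CPM in CSA and at 39.2 and 25.8 in BA, without overlap (1.36 ± 0.34, edgeR adjusted p = 0.00483). Of 13 pattern recognition receptors tested 3 were lower (6.79% of all genes) and 1, Tlr4, was higher (1.87%), against 2 and none with all 6 libraries, none with CSA 1 and CSA 2 alone, and 4 and none among members with a Xist UMI and no Y-linked UMI. Nlrp3, the inflammasome sensor, was at 0, 91.6, 21.1 and 15.8 CPM in CSA and at 171 and 146 in BA (-3.13 ± 0.34). Cd14, which hands lipopolysaccharide to Tlr4, was at 85.6, 779, 21.1 and 55.7 CPM in CSA and at 915 and 664 in BA, so that CSA 2 lay between the BA libraries (-4.06 ± 0.27), and the gene was not called with all 6 libraries (edgeR adjusted p = 0.585). Tlr4 was at 0, 0, 17.6 and 8.36 CPM in CSA and at 1.96 and 0.939 in BA.

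C-type lectins other than the markers had 1 gene higher and 2 lower of 17 tested, beside 1.87% and 6.79% of all genes. The counts were the same with all 6 libraries, none in either direction with CSA 1 and CSA 2 alone, and 1 and 4 among members with a Xist UMI and no Y-linked UMI. Cd209b, the neighbour of Cd209a on chromosome 8, was at 0, 22.9, 28.2 and 40.9 CPM in CSA and at 0 and 6.10 in BA, higher in CSA 3 and CSA 4 (2.99 ± 0.57) with an overlap through CSA 1. Clec4d, an activating lectin for mycobacterial lipids, had no UMI in CSA and 11.8 and 23.5 CPM in BA, at least 9.62-fold lower. Of 6 enzymes of lipid mediators tested 1 rose and 1 fell, while none did with all 6 libraries or with CSA 1 and CSA 2 alone. Ptgs2, the inducible cyclooxygenase, was at 76.0, 0, 0 and 21.4 CPM in CSA and at 171 and 256 in BA (-3.73 ± 0.52, edgeR adjusted p = 0.00111). Hpgd, which breaks down the prostaglandins that Ptgs2 leads to, was at 47.5, 91.6, 211 and 159.7 CPM in CSA and at 56.8 and 22.5 in BA (2.47 ± 0.35, edgeR adjusted p = 1.8e-05). The 2 enzymes thus moved in opposite directions in CSA 3 and CSA 4, while Hpgd of CSA 1 lay between the BA libraries.

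Immediate-early genes, which are transcribed soon after many kinds of stimulus, gave 7 lower and 1 higher of 25, with a median of -1.01. Using all 6 libraries 3 were lower and 1 higher, with CSA 1 and CSA 2 alone none was lower and 1 higher, and in members with a Xist UMI and no Y-linked UMI 10 were lower and none higher. Maff, a small Maf protein, was at 0, 45.8, 0 and 3.71 CPM in CSA and at 123 and 106 in BA (-5.19 ± 0.51). Nr4a3, a nuclear receptor of dendritic cell migration, was at 9.51, 160.3, 0 and 33.4 CPM in CSA and at 527 and 545 in BA (-4.41 ± 0.66, edgeR adjusted p = 0.0275), and it was not called with all 6 libraries. Fosb was at 266, 790.0, 113 and 78.0 CPM in CSA and at 457 and 390.5 in BA, where CSA 2 lay highest, and its log2 fold change of -2.16 ± 0.23 became 0.14 with CSA 1 and CSA 2 alone. Jun, by contrast, was at 1055, 103, 416 and 309 CPM in CSA and at 412 and 342 in BA. Egr2 was higher at 47.5, 160.3, 38.8 and 42.7 CPM in CSA against 11.8 and 14.1 in BA (1.66 ± 0.41), but -0.36 among members with a Xist UMI and no Y-linked UMI.

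Heat shock and chaperone genes gave 6 lower of 13 tested, with a median of -1.27, 1 with all 6 libraries, none with CSA 1 and CSA 2 alone and 7 in members with a Xist UMI and no Y-linked UMI. Hsph1 was at 114, 34.3, 14.1 and 12.1 CPM in CSA and at 165 and 86.8 in BA (-3.19 ± 0.40). Hspa5, a chaperone of the endoplasmic reticulum, was at 1122, 401, 261 and 358 CPM in CSA and at 857 and 832 in BA, with CSA 1 highest of all libraries. Interferon-induced genes had 4 of 24 lower (Ifitm1, Irf7, Oas1a and Stat2) and none higher. The count was 2 with all 6 libraries, 0 with CSA 1 and CSA 2 alone and 2 in members with a Xist UMI and no Y-linked UMI. Irf7, a factor of the interferon response, was at 19.0, 0, 35.2 and 20.4 CPM in CSA and at 51.0 and 79.8 in BA.

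Of 9 cell division genes tested of 20, 4 were lower in CSA and none higher. With all 6 libraries 4 were lower, with CSA 1 and CSA 2 alone 2, and in members with a Xist UMI and no Y-linked UMI 5. In members thinned to 1500 UMIs none was lower, against 8.42% of the 2032 genes that could still be tested. A UMI of Mki67 or Top2a was left there in 7.09% of BA and 2.75% of CSA members, below the 10% needed for a test. Mki67, which marks dividing cells, was at 0, 11.4, 3.52 and 6.50 CPM in CSA and at 108 and 82.1 in BA, without overlap (-3.93 ± 0.46, edgeR adjusted p = 2.7e-08), and was found in 4.55% of CSA and 39.9% of BA members. Top2a, a topoisomerase of dividing cells, was at 19.0, 22.9, 0 and 7.43 CPM in CSA and at 39.2 and 52.1 in BA, and it was found in 8.18% and 10.5% of members. The share of members with a Top2a UMI was thus much less different than that with a Mki67 UMI.

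By size of change, 12 genes in each direction were taken from those called that had 50 or more UMIs where they were higher and did not overlap over the 6 libraries. Of those lower in CSA, Ccr7, Ccl22, Cxcl2 and Il1rn are given above. Gprc5a, an orphan receptor induced by retinoic acid, was found in no CSA library and at 56.8 and 33.3 CPM in BA, at least 17.2-fold lower. Timd4, a receptor for phosphatidylserine, was found in none and at 52.9 and 33.3 CPM in BA, at least 16.8-fold lower. Lrrc32, or GARP, which docks latent TGF-beta, was found in none and at 37.2 and 42.2 CPM in BA, at least 18.7-fold lower and in 33.6% of BA members. Ankrd33b was at 7.84 and 33.3 CPM and Spc24, a kinetochore protein, at 7.84 and 26.8 CPM in BA, both without a UMI in CSA. Igfbp5 (11.8 and 36.6 CPM in BA, 55.3% of its UMIs from 1 cell), Gm17056 (21.6 and 26.3 CPM) and Pxdc1 (19.6 and 21.1 CPM) had UMIs in 1 CSA library each.

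The 12 genes taken as higher in CSA changed less, by 1.65 to 2.26 in log2. Some called genes with larger changes, such as Cd209b (2.99) and Hpgd (2.47), overlapped over the 6 libraries and were not taken. Fam46a, a noncanonical poly(A) polymerase, had the smallest error: it was at 295, 218, 239.6 and 199.7 CPM in CSA and at 76.5 and 57.7 in BA (1.79 ± 0.26, edgeR adjusted p = 2.1e-06), and it was found in 80.0% of CSA and 42.7% of BA members. Tnfaip8l2, or TIPE2, a brake on innate and T cell activation, was at 57.0, 34.3, 116 and 52.0 CPM in CSA and at 11.8 and 18.3 in BA (2.26 ± 0.41, edgeR adjusted p = 0.00015). Timp2, an inhibitor of matrix metalloproteinases, was at 57.0, 91.6, 91.6 and 69.6 CPM in CSA and at 17.6 and 25.3 in BA (1.81 ± 0.36). Arl11 (1.91 ± 0.42), Cass4 (1.85 ± 0.41), Rnpepl1 (1.80 ± 0.41), Slc25a24 (1.71 ± 0.40), Ddx18 (1.68 ± 0.39) and Armc8 (1.65 ± 0.43) followed, along with Egr2. The 2 others, Gm9493 (2.24 ± 0.46) and Gm8186 (1.66 ± 0.41), are predicted genes that may share reads with near-identical copies and are uncertain. That every CSA library lay above both BA libraries was a condition of this choice. With CSA 1 and CSA 2 alone none passed; for Fam46a that fit gave 1.77.

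A few genes outside this rule, chosen after their values were seen, stood out in CSA 3 and CSA 4. Kdm6b, a histone demethylase of inflammatory genes, was at 57.0, 469, 14.1 and 27.9 CPM in CSA and at 778 and 726 in BA, without overlap (-4.90 ± 0.25, edgeR adjusted p = 3e-17), although it was not called with all 6 libraries. Txnip, which binds thioredoxin and is sensitive to glucose, was at 285, 22.9, 292 and 224 CPM in CSA and at 64.7 and 32.4 in BA (2.59 ± 0.29). Gm42418, which overlaps ribosomal RNA, was at 9049.5, 16350.5, 32478 and 35239 CPM in CSA and at 8880 and 9546 in BA (1.94 ± 0.11), and it took 3.25% and 3.52% of member UMIs in CSA 3 and CSA 4. Xist was lower (-2.67 ± 0.19) and Ddx3y was found in CSA 3 and CSA 4 alone, at 21.1 and 28.8 CPM. Txnip, Gm42418 and Xist were not called with all 6 libraries either (edgeR adjusted p = 0.255, 0.536 and 0.699). The part of sex and of ribosomal reads in the other changes was not tested beyond the counts given.

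Of 15 integrin and adhesion genes tested 1, Icam1, was lower, and none of 6 Fc receptor genes passed. Of 15 genes of lipid handling and the lysosome 3 were lower, Cd63, Fabp5 and Spp1, all without overlap over the 6 libraries. Of all genes 6.79% were called lower, and 59.2% of those called lower did not overlap. All 6 libraries gave 3 lower too (3.98% of all genes), and with CSA 1 and CSA 2 alone none was.

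Markers of other cells were found in the members at levels that differed between lists and libraries. Border macrophage genes summed to 532, 916, 627 and 565 CPM in CSA and to 425 and 406 in BA, led by Mrc1, and none of 4 tested passed both limits. Mrc1, the mannose receptor, was at 124, 240.4, 268 and 299.9 CPM in CSA and at 171 and 107 in BA, in 71.8% of CSA and 48.95% of BA members. It passed on the edgeR adjusted p (0.000417) and not on size (1.153 ± 0.234), and CSA 1 lay between the BA libraries. Monocyte genes, led by Lyz2, summed to 1245, 1821, 4454 and 3266 CPM in CSA and to 4569 and 4457 in BA. Of 9 tested 1 was lower, Ly6c2, at 219, 0, 91.6 and 64.1 CPM in CSA and 365 and 179 in BA (-1.78 ± 0.32). With all 6 libraries 0 were lower, with CSA 1 and CSA 2 alone 2, and in members with a Xist UMI and no Y-linked UMI 0. Ly6c2 had an edgeR adjusted p of 0.409 with all 6 libraries and 0.817 with CSA 1 and CSA 2 alone. No gene of the neutrophil, B cell, fibroblast, endothelial or mural lists was called (1 or 2 of each could be tested). Ptgds, a prostaglandin synthase of meningeal fibroblasts, came near, at 105, 103, 127 and 30.6 CPM in CSA and at 3.92 and 0.469 in BA, in 32.7% of CSA and 2.10% of BA members (5.71 ± 1.27, edgeR adjusted p = 0.0513), and it was called higher with all 6 libraries. Its part in the other changes was not tested. No T or NK cell or mast cell gene was frequent enough to be tested. In CSA 1, with 5 members, the endothelial list summed to 1141 CPM, the B cell list to 817 CPM and the plasmacytoid list, led by Bst2, to 2386 CPM, against at most 105, 229 and 668 CPM in the other libraries. The part of these in the changes was not tested beyond the counts below. Acta2, of smooth muscle, led the mural list, which summed to at most 34.3 CPM in CSA and to 23.5 and 512 CPM in BA. Of 4 microglial genes tested 1, Gpr34, was higher, and 4 genes of that list had no UMI in the members. Gpr34 was not called with all 6 libraries or among members with a Xist UMI and no Y-linked UMI (edgeR adjusted p = 0.066 and 0.094). The erythroid list, led by Hbb-bs, was at 43095 and 58208 CPM in CSA 3 and CSA 4 and 14651 in BA 2 but at most 23.5 CPM elsewhere. Of 5 erythroid genes tested 1, Bpgm, was higher, and it was not called with all 6 libraries (edgeR adjusted p = 0.447). When hemoglobin genes were left out, 144 genes were higher and 523 lower, and when members with genes of other lineages were left out, 158 and 516.

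To see whether the changes were those of the libraries at large, they were set beside the changes in 2 other myeloid classes of the same 4 libraries, with the library as a block. C1q-positive class II barcodes changed in 602 genes (7.88%), 123 higher (1.61%) and 479 lower (6.27%) in CSA, and Ly6c2 monocyte barcodes in 215 of 7641 (2.81%), 33 higher (0.432%) and 182 lower (2.38%). The change differed between members and C1q-positive barcodes in 173 genes (2.26%), being more negative in members in 98 (1.28%) and more positive in 75 (0.981%). It differed from that of monocyte barcodes in 112 genes (1.47%), more negative in 87 (1.14%) and more positive in 25 (0.327%). These comparisons share libraries, and in these 4 libraries the 3 classes had 243, 333 and 147 barcodes at median depths of 15411, 8356 and 12531 UMIs.

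Whether the change in members differed from that in the other classes varied from gene to gene. Of the genes named above for having next to no UMIs in CSA, Cxcl2 was at 199 and 2091 normalised CPM in C1q-positive barcodes of CSA and BA (-3.40 ± 0.22) and Il1rn at 2.79 and 127 (-5.53 ± 0.44), both called lower in that class too. Gadd45b changed by -4.36 in members and -5.01 ± 0.33 in C1q-positive barcodes, a difference of 0.55 (edgeR adjusted p = 0.592), and by -2.32 ± 0.46 in monocyte barcodes, a difference of -2.14 (edgeR adjusted p = 0.00161). Cxcr4 changed by -4.13 and -3.58 ± 0.32, with no difference past the threshold, and by -1.94 ± 0.30 in monocytes (difference -2.20). Cd40 changed by -4.21 in members, -2.77 ± 0.40 in C1q-positive barcodes (difference -1.47, edgeR adjusted p = 0.318) and 0.79 ± 0.61 in monocytes (difference -5.08). Mki67 changed by -3.93 in members and by 0.26 ± 1.04 in monocytes, with a difference of -4.67 in the joint fit with the library as a block (edgeR adjusted p = 2.9e-11). Against C1q-positive barcodes the difference for Mki67 was not called.

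For Icam1, Nfkbiz, Timp2, Hpgd, Cxcl2 and Tnip3 the change in the members differed from that in both other classes. Icam1 changed by -4.32 in members, -2.77 ± 0.32 in C1q-positive barcodes (difference -1.57, edgeR adjusted p = 0.0196) and 0.24 ± 0.52 in monocytes (difference -4.65). Nfkbiz changed by -3.14, -1.27 ± 0.27 and -0.60 ± 0.43, and the differences were -1.99 and -2.51. Timp2 was higher in CSA in members (1.81) and at -0.47 ± 0.26 and -0.37 ± 0.42 in the other classes, with differences of 2.32 and 2.23. Hpgd was at 2.47, 0.30 ± 0.26 and 0.65 ± 0.34, with differences of 2.27 and 1.85. Tnip3 changed by -2.06, -0.15 ± 0.25 and -5.17 ± 0.90, with differences of -1.95 and 3.25. For Cxcl2, without a UMI in the members of CSA, the differences of -6.40 and -7.06 depend on the prior count of the fit. Cxcl16 changed by -3.06 in members and -0.60 ± 0.22 in C1q-positive barcodes (difference -2.46). Cd14 changed by -4.06 and -1.22 ± 0.24 in these (difference -2.98) but by -5.01 ± 0.31 in monocytes, where the difference of 0.88 did not pass (edgeR adjusted p = 0.440). Differences for Ccr7 and Ccl22 are not given, since both other classes had next to no UMIs of them.

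**Figure D5:**
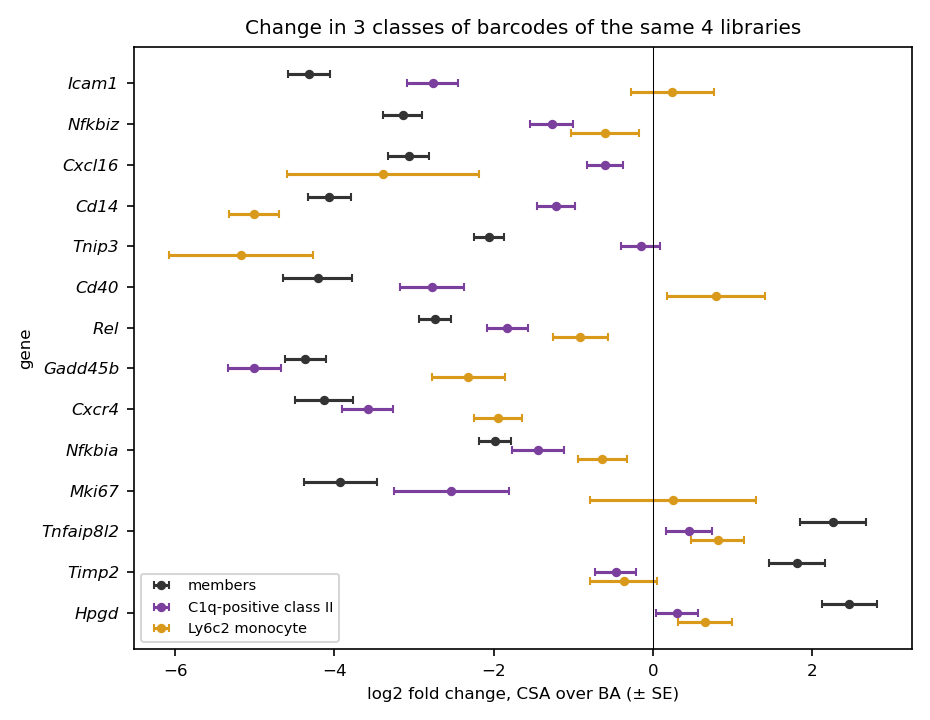
Log2 fold change of CSA 3 and CSA 4 over BA 1 and BA 2 (x axis, ± SE) of 14 genes (rows) in Cd209a dendritic cells (black), C1q-positive class II barcodes (purple) and Ly6c2 monocyte barcodes (orange). Gadd45b is lower in all 3 classes, while Timp2 and Hpgd are higher in CSA in the dendritic cells and at -0.47 and 0.30 in C1q-positive barcodes.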

How the data were processed

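Cells of 4 CSA and 2 BA libraries were measured by 10x Genomics single-cell RNA-seq. The authors deposited filtered matrices of UMI counts per gene and barcode (mm10; the matrix headers name Cell Ranger 6.1.2 and the submitters' processing notes Cell Ranger 3). The labels name papain and the study's methods collagenase and dispase for dissociation, so the enzyme is uncertain. The members and gene lists were chosen with earlier results of these data known.

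Members' counts were summed per library. Genes with a UMI in over 10% of the members of either preparation were tested with the edgeR 4.0.16 quasi-likelihood test in R 4.3.3 (TMM scaling, robust), without covariates, on libraries with at least 10 members. The 8 genes of the rule stayed in library totals and were not tested. A gene was called at an adjusted p below 0.05 if its log2 fold change was 1.3 (2.46-fold) or more in either direction. Fold changes of genes without a UMI in CSA 3 and CSA 4 were bounded with 3 counts over both. Shares and gates were compared by exact permutation tests in Python 3.11.15 with scipy 1.17.1. Libraries are pools of mice, and p-values measure the spread between libraries.

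Named genes were the called genes of the lists, the label markers and rule genes, and the 12 largest changes in each direction among called genes that had 50 or more UMIs where they were higher and did not overlap between libraries. Doublet-like barcodes (124 in all, 6 of them members) and hemoglobin genes were removed only as alternatives; whether hemoglobin came from free RNA was not tested. Other alternatives were DESeq2 1.42.0, other scalings and filters, other limits of the rule, thinning, other sets of libraries and a replicate block. The fits with all 6 libraries, with members chosen by Xist and Y-linked UMIs, without members rich in plasmacytoid genes and with the block in libraries 1 and 2, and the comparison of classes, were chosen after seeing the data. The fit was tested on simulated data with 7644 genes: 60 of 100 genes changed 3-fold and 96 of 100 changed 6-fold were recovered, and 10 unchanged genes were called.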

Additional observations from a re-analysis of the deposited data

Results flagged for a closer look

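In the 4 CSA libraries, 1 library stood far from the others in 27 of 105 genes examined (a gap test at the 95% level, for which chance gives about 1 in 20, or 5.25). In most of these CSA 2, with 5 members, was the high one: Tnip3 at 2485 CPM, Il1b at 1122, Cd83 at 1042, Cd14 at 779, Tnfsf9 at 687, Rel at 664, Gadd45b at 561, Kdm6b at 469, Cxcl16 at 275, Egr2 at 160.3, Il1rl1 at 137, Nfil3 at 137 and Il4ra at 103 CPM. At lower levels the same library stood out in Osm (68.7 CPM), Cd274 (57.2), Vegfa (57.2), Maff (45.8), Ccl22 (22.9), Igfbp5 (11.4) and Cd63 (11.4). CSA 1, also with 5 members, was high in Hspa5 (1122 CPM), Fos (703), Pxdc1 (19.0) and Gm17056 (19.0) and had no UMI of Ccl17 (0 CPM). CSA 4 was the only CSA library with Clec4n, at 7.43 CPM, and with Il4i1, at 14.9 CPM.

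The change between preparations differed between the members and another class of cells in 45 of 207 tests of named genes. Over all genes it differed in 2.26% against C1q-positive barcodes and in 1.47% against monocyte barcodes. Of 104 named genes tested 93 had been called in the members of these libraries, a choice that favours such differences. The values are the log2 fold change in members minus that in the other class, called as before by edgeR. Against C1q-positive class II barcodes it was more negative in members for Cxcl2 (-6.40), Igfbp5 (-5.68), Cd14 (-2.98), Cd63 (-2.71), Cxcl16 (-2.46), Nfkbiz (-1.99), Tnip3 (-1.95), Tnfsf9 (-1.90), Icam1 (-1.57), Xist (-1.41) and Ccr2 (-1.34). It was more positive for Cd209b (3.63), Egr2 (3.31), Cd200r1 (2.39), Timp2 (2.32), Hpgd (2.27), Txnip (2.04), Mrc1 (2.02), Tnfaip8l2 (1.75) and Clec10a (1.63).

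Against Ly6c2 monocyte barcodes the change was more negative in members for Il1rn (-8.22), Spc24 (-7.08), Cxcl2 (-7.06), Cd40 (-5.08), Mki67 (-4.67), Icam1 (-4.65), Maff (-4.55), Il1b (-3.85), Bpgm (-3.67), Tnfaip3 (-2.86), Stat2 (-2.69), Nfkbiz (-2.51), Kdm6b (-2.49), Tnfrsf1b (-2.48), Cxcr4 (-2.20), Gadd45b (-2.14), Nlrp3 (-1.89), Rel (-1.80), Cebpb (-1.50) and Fos (-1.35). It was more positive for Spp1 (7.07), Tnip3 (3.25), Armc8 (3.04), Timp2 (2.23) and Hpgd (1.85). The sizes for Cxcl2, Il1rn, Spc24, Igfbp5 and Spp1 rest on a group without UMIs and depend on the prior count of the fit.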

How the results depend on the processing

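No gene called in an alternative was called in the opposite direction in the main comparison. Against 662 calls (143 higher and 519 lower in CSA), DESeq2 gave 341 (36 and 305), thinning 200 (29 and 171), all 6 libraries 358 (52 and 306) and CSA 1 and CSA 2 alone 40 (4 and 36). Higher genes numbered 243 under upper-quartile scaling, 92 without a detection filter and 51 in members with a Xist UMI and no Y-linked UMI. Of the 52 and 306 genes called with all 6 libraries, 47 and 290 were called in the main comparison too. The causes were not tested, except that thinning left fewer genes to test.

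Leaving out 1 library gave 301 (without CSA 4) to 875 (without BA 1) calls, 37 to 266 higher and 264 to 609 lower. With all 6 libraries the range was 113 (without BA 2) to 553 (without CSA 2), 5 to 95 higher and 108 to 458 lower. Differences from C1q-positive barcodes ranged from 67 (without CSA 4) to 282 (without BA 1) against 173, and from monocyte barcodes from 25 (without CSA 4) to 162 against 112. Where an arm held 1 library, it was assumed to vary like the others.

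The replicate numbers shared by CSA and BA libraries pair nothing that the labels name, and same-numbered libraries deviated together with r = 0.102 for number 1 and -0.0374 for number 2 over 5448 genes. With the number as a block, 108 genes were called with all 6 libraries (13 higher, 95 lower) and 107 with libraries 1 and 2 of each preparation (14 and 93). Of 11 genes followed that were not called in the main comparison, Cd83 (-2.15 and -2.12), Ccl17 (-3.40 and -3.38), Clec10a (-1.85 and -1.82) and Ptgds (5.85 and 5.87) were called in both. Flt3 turned from -0.47 to 0.0482 and 0.0931 in these blocked fits, and to 0.0928 with CSA 1 and CSA 2 alone. So did, among called genes, Bpgm (-0.42 and -0.34), H2-Q4 (0.24 and 0.28), H2-Q6 (0.54 and 0.58), Ifi205 (0.15 and 0.20) and Tlr4 (-3.22 and -3.25) in the blocked fits.

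With CSA 1 and CSA 2 alone Tnip3 turned to 0.16, Tnfsf9 to 0.17, Fosb to 0.14, Bpgm to -0.90, H2-Q4 to 0.28, H2-Q6 to 0.57, Ifi205 to 0.27 and Tlr4 to -2.93, and Egr2 to -0.36 in members with a Xist UMI and no Y-linked UMI. In the shares of members with a UMI, CSA minus BA in percentage points after thinning, the sign turned for Flt3 without CSA 3 (range -13.98 to 0.496 over the libraries left out), Fcgr1 without CSA 3 (-5.23 to 0.0292) and Zbtb46 without BA 2 (-6.48 to 0.658). With all 6 libraries it turned for Zbtb46 (6.76) and Siglech (2.59). Without thinning it turned for Fscn1 (0.178), Itgax (-2.67) and Siglech (0.666). The share of members among kept barcodes kept its direction in every alternative run. Depth limits CSA 1 and CSA 2 most, where 1 UMI is 9.51 and 11.4 CPM.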
